A study of Bubalus bubalis with 6 samples.

Results

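The genes described here encode activating transcription factor 4 (ATF4), the factors and regulators of its stress response, and the enzymes, amino acid transporters and cytosolic aminoacyl-tRNA synthetases that supply translation with amino acids and charged tRNAs. They were chosen by symbol from a list of 45 names, in which a synthetase could carry a final 1 or not. The deposited gene table listed 43 of the 45 among its 24616 genes. The symbols CBS and NARS were not listed. All 43 listed genes passed the filter on low counts and were tested, along with 15576 genes in all. The rule uses symbols alone and no measured value, but the names were chosen with earlier results of these data known.

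RNA was taken from muscle stem cells (MuSCs) of the buffalo Bubalus bubalis, isolated from fetal longissimus muscle by collagenase and trypsin digestion. The 3 GM samples, labelled proliferation, were MuSCs dividing in growth medium with fetal bovine serum. The 3 DM samples, labelled differentiation, were MuSCs grown to near confluence and then moved to differentiation medium, in which fetal bovine serum is replaced by a low share of horse serum. Neither group carried a genetic change or a drug that the sources name, and all 6 samples were primary cells of fetal muscle. Serum, cell density and time in culture changed together between the groups and cannot be told apart. The labels do not say whether the 3 samples of a group were separate cultures or animals, so the p-values measure the spread between these samples, which may be technical.

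ATF4 is the central transcription factor of the integrated stress response. Kinases that sense uncharged tRNA, unfolded protein, double-stranded RNA or heme shortage phosphorylate eIF2 alpha, which lowers general translation but allows ATF4 mRNA to be translated through its upstream open reading frames. ATF4 protein then induces genes for amino acid synthesis, amino acid uptake and tRNA charging, together with DDIT3, ATF5 and the feedback inhibitor TRIB3. Because ATF4 is controlled largely at translation, its mRNA level alone does not give its activity. In muscle cells the same enzymes also serve growth, since nucleotide synthesis draws on folate-bound carbon units and protein synthesis draws on charged tRNAs.

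The members did not move as a block. ATF4 mRNA had the same normalized mean in both groups, while ATF5, DDIT3, TRIB3 and WARS rose more than 2-fold in DM. SHMT1, MTHFD1 and SLC7A5 fell more than 2-fold. All 5 folate enzymes and 9 of 17 synthetases fell, and asparagine synthetase rose. A gene was called when its absolute log2 fold change, DM over GM, was above 1 with an adjusted p under 0.05 in the quasi-likelihood test of edgeR with Benjamini-Hochberg adjustment over all 15576 genes, and it is said to have risen or fallen when its adjusted p alone was under 0.05. By the first rule 4 of 43 members were called higher, 9.3%, beside 15% of all genes tested, and 3 were called lower, 6.98%, beside 10.3%. By the second rule 11 members rose, 25.6%, beside 31.6% of all genes, and 20 fell, 46.5%, beside 31.4%. The remaining 12 members did not pass the adjusted p. There was no overlap of the groups in 33 members, 76.7%, beside 68.8% of all genes; DM was the higher group in 12 of these and the lower in 21. The median log2 fold change of the members was -0.14, and that of all genes tested was 0.03.

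**Figure D1:**
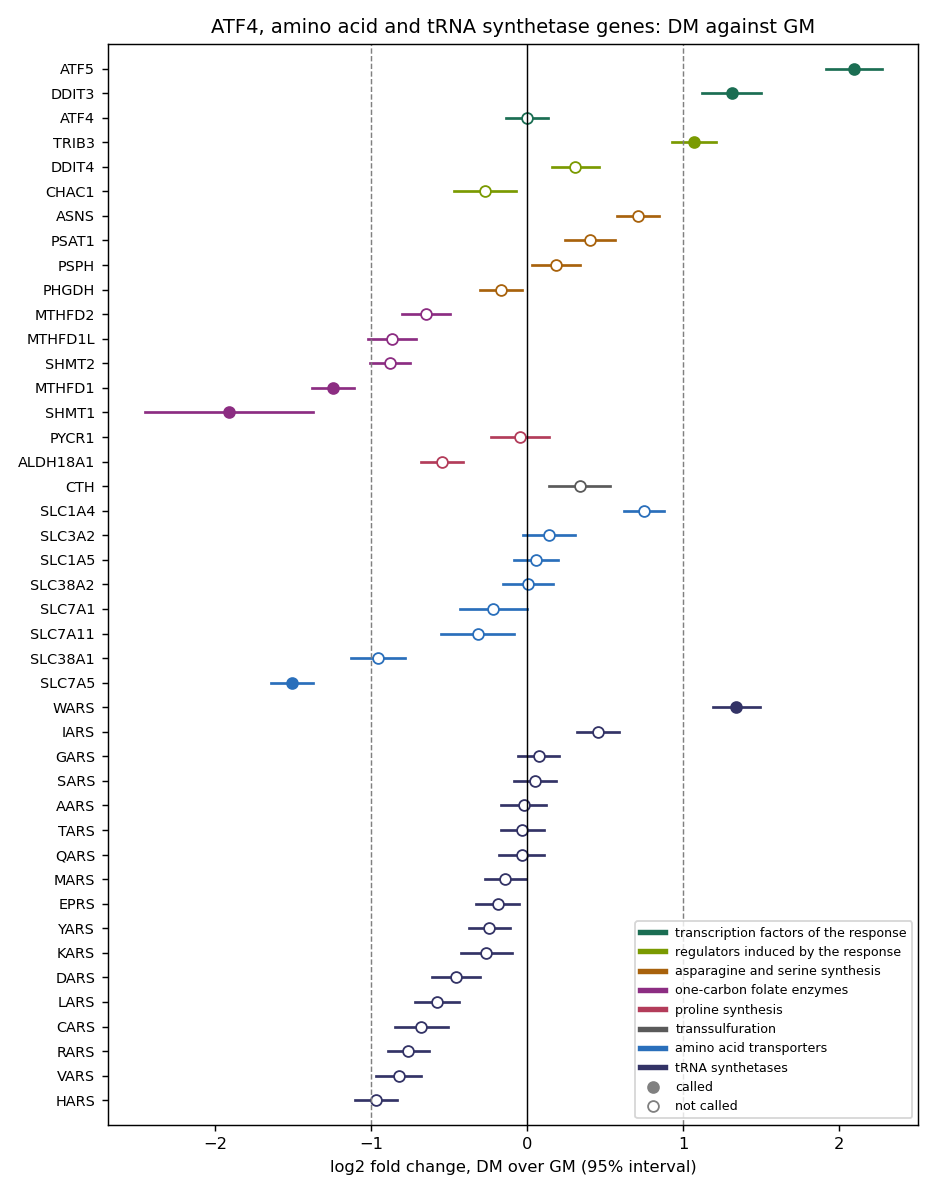
Log2 fold change, DM over GM, of the 43 tested members, grouped by role and ordered by size within each role; lines are 95% intervals and filled points are called members. The dashed lines mark a log2 fold change of 1 in each direction, and all 5 folate enzymes lie left of 0.

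Each sample held 35615864 to 40305237 counts on genes, of which the members took 1.03 to 1.05% in GM and 0.929 to 0.954% in DM. The members were well expressed: their median deposited RPKM (reads scaled by gene length and by the total counts of the sample) was 75.6 in GM and 71.4 in DM, beside 7.86 and 7.52 for all genes tested. Of the 43 members, 38 in GM and 37 in DM lay above 75% of the tested genes. Replicates of the members were close, with a median coefficient of variation of 2.79% in GM and 6.11% in DM. DM replicate 3 differed from DM replicates 1 and 2 more than other pairs of replicates did, at 40.5 to 41.4 chi-square units for each degree of freedom, against 11.7 between those 2 and 6.22 to 10.6 between GM samples. It was the highest DM sample in 22 of 43 members, 51.2%, and in 37.7% of all genes. Without it, 4 members were called higher and 3 lower.

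Muscle markers were present in both groups, with desmin (DES) at 2274 ± 103 CPM (SD, n = 3) in GM and 2051 ± 323 in DM, where CPM is the library-scaled count after TMM normalization (trimmed mean of M values). Of 11 muscle markers tested, 7 were called higher in DM, 63.6%, beside 15% of all genes tested. Among them was the fusion-stage factor MYOG at 53.0 ± 13.3 CPM in GM and 167 ± 15.5 in DM. MYF5, a factor of undifferentiated myoblasts, was called lower. All 12 proliferation markers were called lower, beside 10.3% of all genes tested. Their summed level was 2448 to 2478 CPM in GM and 500 to 596 CPM in DM. The 9 tested fibroblast markers, led by collagen genes that myogenic cells also express, summed to 38000 to 39117 CPM in GM and 101875 to 128078 CPM in DM. Of these markers 6 were called higher, 66.7%, beside 15% of all genes tested. POSTN went the other way and fell (log2 fold change -0.93), and a further marker, TCF21, did not reach the filter. Smooth muscle markers summed to 3951 to 4156 CPM in GM and 3196 to 3676 CPM in DM, with none of 5 called. Adipocyte, endothelial and immune markers stayed low, at most 8.76, 3.22 and 13.6 CPM summed in any sample. Of 6 adipocyte markers tested, 2 were called higher, 33.3%, and 1 lower, 16.7%. Of 5 endothelial markers tested, 3 were called lower, 60%. Of 4 immune markers tested, CD14 was called higher (log2 fold change 2.75) and CD68 lower (-1.04), 25% each. The shares of all genes tested were 15% higher and 10.3% lower. The immune markers PTPRC and CD3E did not reach the filter. Marker levels that differed between GM and DM did so in the same comparison as that of every member. Their part in the results was not tested, and in bulk RNA fewer cells of a type and less RNA per cell cannot be told apart.

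ATF4 itself was among the most abundant members and did not differ between the groups in TMM-normalized CPM. Its level was 591.7, 591.5 and 620.4 CPM in GM samples and 633.9, 577.5 and 591.3 CPM in DM samples, and the groups overlapped. The means were 601 ± 16.6 CPM in GM and 601 ± 29.4 CPM in DM (SD, n = 3 each). The 95% interval of the log2 fold change reached from -0.14 to 0.13, with an adjusted p of 0.993 in edgeR. In RPKM, ATF4 ranked second of the members in GM at 441 ± 12.2 and first in DM at 411 ± 12.8, above 98.7% and 98.8% of the tested genes. On this scale, which has no TMM factor, its samples did not overlap, at 433 to 455 in GM and 402 to 426 in DM.

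ATF5, a related bZIP factor whose translation is also gated by eIF2 alpha phosphorylation, had the largest rise of the 43 members. Its samples stood at 25.6, 22.9 and 23.8 CPM in GM and at 111.7, 100.3 and 96.8 CPM in DM. All DM samples were far above all GM samples, a 4.27-fold rise (log2 fold change 2.10, SE 0.080, adjusted p = 1.05e-08 in edgeR). ATF5 (ENSBTAG00000003457, chromosome 18, 56725592 to 56729591 in the coordinates of the table, which names no genome build) overlaps IL4I1 on the opposite strand by 258 bases. IL4I1 had a mean of 165 counts in GM and 84.3 in DM, far below the counts on ATF5.

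DDIT3 encodes CHOP, the bZIP factor that carries the response toward cell death when stress persists. Its samples were at 28.5, 31.9 and 31.8 CPM in GM and at 72.2, 71.9 and 84.6 CPM in DM, without overlap. The rise was 2.48-fold (log2 fold change 1.31, SE 0.086, adjusted p = 3.54e-07 in edgeR). DDIT3 (ENSBTAG00000031544, chromosome 5, 56285008 to 56289214) shares 52 bases with MARS on the other strand. Whether reads were counted by strand is not given in the sources used here, so reads in those bases cannot be assigned to either gene. Relative to ATF4 within each sample, DDIT3 RPKM was 0.0770 to 0.0863 in GM and 0.182 to 0.229 in DM, and ATF5 RPKM was 0.0451 to 0.0508 in GM and 0.193 to 0.207 in DM. The ratio of both factors to ATF4 was thus higher in every DM sample than in any GM sample.

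**Figure D2:**
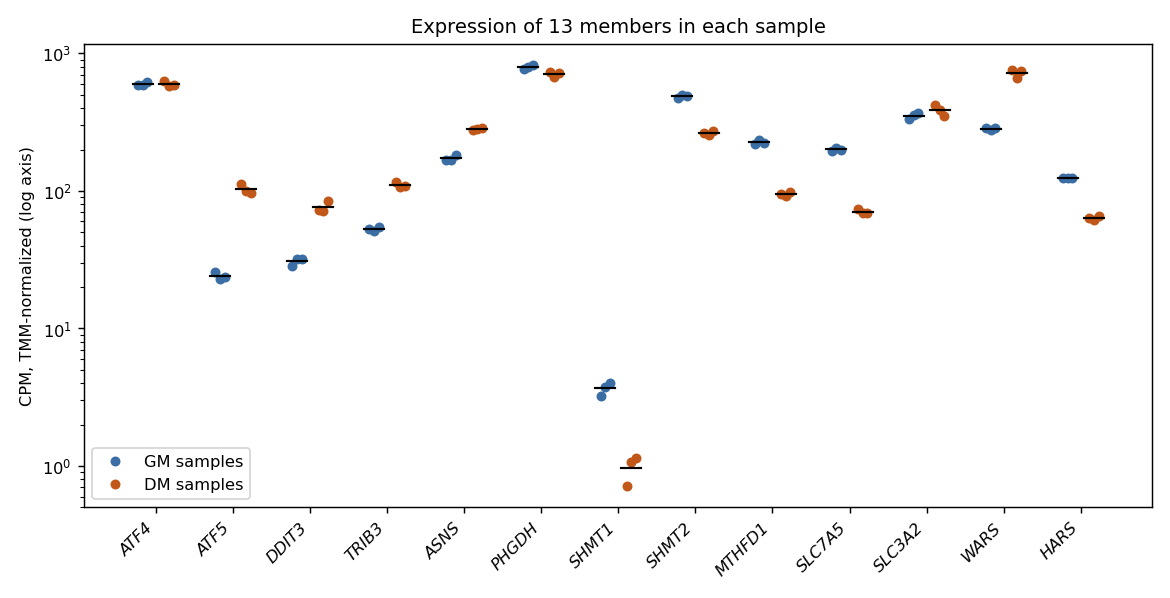
TMM-normalized CPM of 13 members in each of the 3 GM and 3 DM samples, on a log axis; the short bars are group means. ATF4 overlaps between the groups at about 601 CPM, whereas ATF5, DDIT3, TRIB3 and WARS lie higher in all DM samples and SHMT1, MTHFD1 and SLC7A5 lie lower.

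Among the 3 regulators that act downstream, TRIB3 was called higher, DDIT4 rose and CHAC1 fell. TRIB3, a pseudokinase that binds ATF4 and CHOP and restrains them, was at 52.5, 50.7 and 54.3 CPM in GM and at 115.9, 106.5 and 108.4 CPM in DM. The groups were well separated, with a 2.10-fold rise (log2 fold change 1.07, SE 0.065, adjusted p = 1.94e-07 in edgeR). TRIB3 (ENSBTAG00000017007, chromosome 13, 61176218 to 61187210) lay close to the fold threshold: scaled by library size alone its log2 fold change was 0.97, and against a fold change of 2 its adjusted p was 0.248, so it was not called in either case. Its ratio to ATF4 in RPKM was 0.0614 to 0.0635 in GM and 0.131 to 0.132 in DM. DDIT4, an inhibitor of mTORC1, rose by a log2 fold change of 0.31. CHAC1, which degrades glutathione, was at 27.9 ± 0.362 CPM in GM and 23.1 ± 2.63 in DM, with a log2 fold change of -0.27 and an adjusted p of 0.0228 in edgeR. That p lay between 0.0521 and 0.0998 when any GM sample, DM replicate 1 or DM replicate 2 was left out.

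The enzymes of asparagine and serine synthesis split. Asparagine synthetase (ASNS), which makes asparagine from aspartate and glutamine, was at 168.0, 167.1 and 182.1 CPM in GM and at 277.2, 284.2 and 285.2 CPM in DM. Every DM sample lay above every GM sample, a 1.64-fold rise (log2 fold change 0.71, SE 0.060, adjusted p = 2.21e-06 in edgeR), which is below the fold threshold. PHGDH, which opens serine synthesis from a glycolytic intermediate, was the most abundant member in GM, at 448 ± 13.9 RPKM, and was at 373 ± 11.9 RPKM in DM. Its samples were at 771.3, 798.3 and 822.7 CPM in GM and at 730.6, 673.4 and 726.2 CPM in DM, a small gap without overlap. PHGDH fell by 0.17 on the log2 scale (SE 0.061, adjusted p = 0.0334 in edgeR). The adjusted p was 0.0827 without GM replicate 2, 0.136 without GM replicate 3 and 0.116 without DM replicate 2. The enzymes of the next steps went the other way, with log2 fold changes of 0.40 for PSAT1, the aminotransferase, and 0.19 for PSPH, the phosphatase. The adjusted p of PSPH, 0.0368, lay between 0.0521 and 0.110 when any sample other than DM replicate 1 was left out, and at 0.309 with library size alone. Within samples, the RPKM of ASNS over PHGDH was 0.198 to 0.209 in GM and 0.358 to 0.398 in DM.

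The folate enzymes that carry single carbons from serine into purines and thymidylate fell, 5 of 5, beside 31.4% of all genes tested. In none of them did GM and DM samples overlap, beside 68.8% of all genes without overlap. SHMT1, the cytosolic serine hydroxymethyltransferase, had 135, 155 and 153 counts in GM and 24, 39 and 42 in DM. These are the lowest counts of any member, and its mean fell from 3.67 ± 0.393 to 0.970 ± 0.228 CPM (log2 fold change -1.91, SE 0.243, adjusted p = 4.96e-05 in edgeR). SHMT1 is ENSBTAG00000017094 on chromosome 19, 34914351 to 34929459. MTHFD1, the trifunctional cytosolic folate enzyme, was at 218.7, 234.9 and 222.1 CPM in GM and at 94.4, 92.3 and 99.0 CPM in DM. All DM samples were far below all GM samples (log2 fold change -1.24, SE 0.061, adjusted p = 5.08e-08 in edgeR). MTHFD1 is ENSBTAG00000009641 on chromosome 10, 76858872 to 76919406.

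The mitochondrial counterparts fell less than the threshold of the call. Log2 fold changes were -0.88 for SHMT2, -0.65 for MTHFD2 and -0.86 for MTHFD1L. Per length, SHMT2 was the main serine hydroxymethyltransferase in both groups, at 239 ± 4.69 RPKM in GM and 122 ± 3.88 in DM, against 1.498 ± 0.158 and 0.371 ± 0.0916 RPKM for SHMT1. The ratio of SHMT2 to SHMT1 was 146 to 176 in GM and 290 to 450 in DM, and SHMT1 had few counts in DM. SHMT2 shares 21 bases with NDUFA4L2 on the opposite strand. MTHFD2 and MTHFD1 were near parity in GM, with a ratio of RPKM of 0.966 to 1.12, and the ratio was 1.55 to 1.66 in DM. MTHFD1L over MTHFD1 was 0.643 to 0.670 in GM and 0.817 to 0.887 in DM. For each of these 3 ratios the groups were apart.

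Of the proline enzymes, ALDH18A1, which makes the glutamate semialdehyde, fell by 0.54 on the log2 scale, and PYCR1, which closes the pathway, was at 161 ± 1.89 CPM in GM and 156 ± 18.6 in DM with overlapping samples (95% interval of the log2 fold change -0.23 to 0.14). CTH, the transsulfuration enzyme that releases cysteine, rose by 0.34 on the log2 scale, and its level was low, at 7.69 ± 0.313 RPKM in GM and 9.08 ± 0.692 in DM.

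Of the 8 amino acid transporters, SLC7A5, SLC38A1 and SLC7A11 fell, 37.5%, beside 31.4% of all genes tested. SLC1A4 rose, 12.5%, beside 31.6%, and 4 did not pass the adjusted p. SLC7A5, or LAT1, which exchanges glutamine for leucine and other large neutral amino acids, was at 195.8, 206.3 and 199.1 CPM in GM and at 73.6, 69.0 and 69.2 CPM in DM. The groups were far apart, a 2.84-fold fall (log2 fold change -1.505, SE 0.061, adjusted p = 1.45e-08 in edgeR). SLC7A5 is ENSBTAG00000006731 on chromosome 18, 13341371 to 13370494. SLC3A2, the heavy chain that takes both SLC7A5 and SLC7A11 to the membrane, was at 351 ± 17.4 CPM in GM and 387 ± 35.9 in DM (log2 fold change 0.14, 95% interval -0.03 to 0.31, adjusted p = 0.130 in edgeR). It passed without DM replicate 3, at a log2 fold change of 0.21 and an adjusted p of 0.00892. Set side by side in RPKM, SLC7A5 was 0.276 to 0.300 times SLC3A2 in GM and 0.0882 to 0.0999 times in DM. SLC7A11, the cystine carrier xCT, was 0.0450 to 0.0547 times SLC3A2 in GM and 0.0307 to 0.0386 times in DM.

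SLC7A11 fell by 0.32 on the log2 scale (adjusted p = 0.0232 in edgeR), and its adjusted p was 0.0886 without GM replicate 1, 0.0746 without GM replicate 3 and 0.0768 without DM replicate 1. SLC38A1 and SLC38A2, system A glutamine and alanine carriers, lie next to each other on chromosome 5 with 102244 bases between them. SLC38A1 fell by 0.95 on the log2 scale, and it was called lower without GM replicate 2 (-1.004) and with library size alone (-1.05). SLC38A2 had a log2 fold change of 0.01 with a 95% interval of -0.15 to 0.17. The RPKM of SLC38A1 was 0.565 to 0.588 times that of SLC38A2 in GM and 0.277 to 0.326 times in DM. The cationic carrier SLC7A1, at 58.1 ± 1.15 CPM in GM and 50.03 ± 7.29 in DM, had an adjusted p of 0.0725, and 0.00394 without DM replicate 1. SLC1A5, the glutamine carrier ASCT2, was at 562 ± 14.9 CPM in GM and 585 ± 35.0 in DM, with overlapping samples.

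SLC1A4, which carries alanine, serine and cysteine, was the transporter that rose, from 105 ± 2.93 to 176 ± 4.83 CPM (log2 fold change 0.75, adjusted p = 1.20e-06 in edgeR). Its locus lies wholly inside that of ENSBTAG00000046117 on the same strand, with 29935 shared bases and a mean of 3848 counts in GM and 3004 in DM on the second gene. How reads were divided between these genes is not given in the sources used here, so the level of SLC1A4 is uncertain.

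Aminoacyl-tRNA synthetases join each amino acid to its tRNA. Of the 17 cytosolic synthetase genes tested, WARS and IARS rose, 11.8%, beside 31.6% of all genes tested, and 9 fell, 52.9%, beside 31.4%. The other 6 did not pass the adjusted p, and the median log2 fold change was -0.19. Of the 17, the tryptophan enzyme WARS alone was called in edgeR with TMM. It was at 288.7, 275.1 and 286.6 CPM in GM and at 753.3, 661.7 and 740.2 CPM in DM. The lowest DM sample was above the highest GM sample by more than 2-fold, and the rise was 2.53-fold (log2 fold change 1.34, SE 0.067, adjusted p = 5.47e-08 in edgeR). WARS is ENSBTAG00000004679 on chromosome 21, 66888332 to 66916535. IARS, for isoleucine, rose by a log2 fold change of 0.45, with 231 to 256 CPM in GM and 330 to 339 CPM in DM.

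The 9 that fell were HARS (-0.97), VARS (-0.82), RARS (-0.76), CARS (-0.68), LARS (-0.58), DARS (-0.46), KARS (-0.26), YARS (-0.24) and EPRS (-0.19), given as log2 fold changes. In HARS, for histidine, the GM samples held 124 to 125 CPM and the DM samples 61.1 to 65.9 CPM. HARS missed the fold threshold narrowly, and with library size alone it was called lower at -1.07. EPRS, the fused enzyme for glutamate and proline, had an adjusted p of 0.0215 in edgeR, which was 0.0670 to 0.0867 without GM replicate 1, GM replicate 3, DM replicate 1 or DM replicate 2. KARS, for lysine, had an adjusted p of 0.0107, and 0.0566 without DM replicate 1. MARS, for methionine, did not overlap between the groups but had an adjusted p of 0.0647 (log2 fold change -0.14). GARS, for glycine, did not overlap either, with a log2 fold change of 0.07 and an adjusted p of 0.290. AARS, QARS, SARS and TARS overlapped between the groups, with log2 fold changes of -0.02, -0.03, 0.05 and -0.03. The limits of their 95% intervals reached at most from -0.177 (QARS) to 0.184 (SARS).

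**Figure D3:**
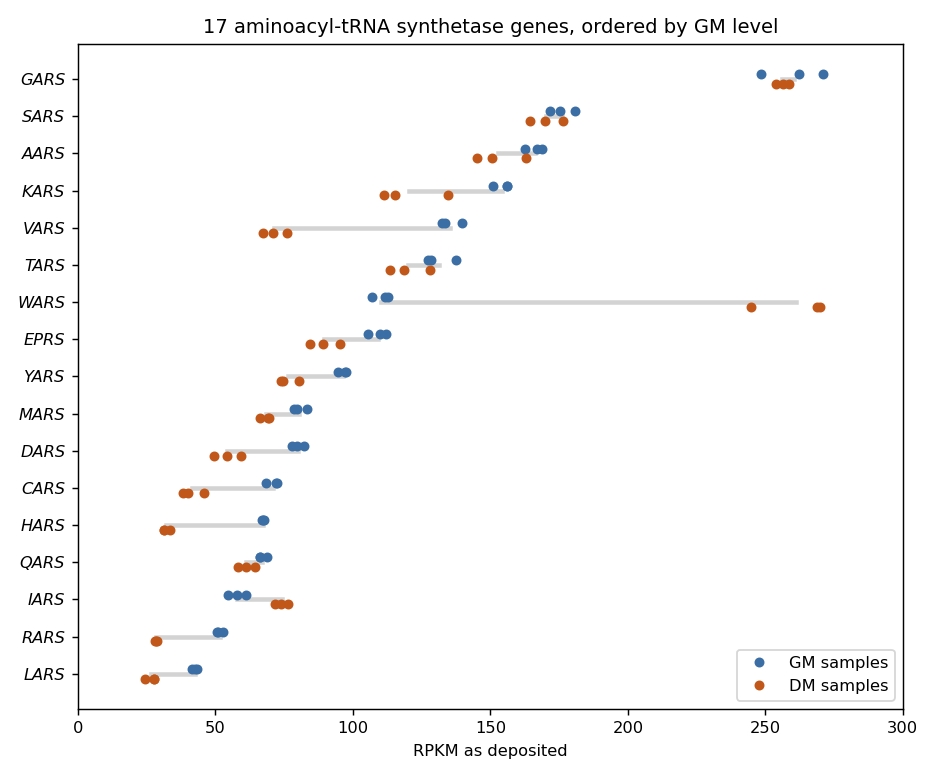
Deposited RPKM of the 17 cytosolic synthetase genes in each GM and DM sample, ordered by the GM mean; grey bars join the group means. WARS lies at 107 to 113 RPKM in GM and 245 to 270 RPKM in DM, and GARS is high in both groups.

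In the order of the synthetases by deposited RPKM, WARS and IARS each stood 6 places higher in DM than in GM, and VARS stood 5 places lower. In GM the order was GARS, SARS, AARS, KARS, VARS, TARS, WARS, EPRS, YARS, MARS, DARS, CARS, HARS, QARS, IARS, RARS and LARS. Neighbours overlapped in 4 of 16 pairs, which were VARS with TARS, WARS with EPRS, MARS with DARS, and HARS with QARS. In DM, WARS stood first at 261 ± 14.3 RPKM, up from 110 ± 3.08 RPKM and rank 7, although its samples overlapped those of GARS at 256 ± 2.36 RPKM. The order below was GARS, SARS, AARS, KARS, TARS, EPRS, YARS, IARS, VARS, MARS, QARS, DARS, CARS, HARS, RARS and LARS, and 6 of the 16 pairs overlapped. WARS made up 5.94 ± 0.124% of the summed RPKM of the 17 genes in GM and 15.3 ± 0.692% in DM. VARS, for valine, made up 7.29 ± 0.319% and 4.19 ± 0.138%.

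The sum itself was 1856 ± 28.2 RPKM in GM and 1704 ± 54.3 in DM, and without WARS it was 1746 ± 26.2 and 1443 ± 47.4. On TMM-normalized library sizes the sums were closer, at 1794 ± 26.2 and 1763 ± 62.0 with WARS and 1688 ± 24.7 and 1493 ± 47.7 without it. Of the synthetases, 8 (EPRS, IARS, LARS, QARS, MARS, KARS, RARS and DARS) are known to form the multi-synthetase complex. This grouping was made after the values were seen. In it 1 of 8 rose, 12.5%, and 5 fell, 62.5%. Among the 9 outside it 1 rose, 11.1%, and 4 fell, 44.4%. Of all genes tested 31.6% rose and 31.4% fell. Within the complex IARS rose, while RARS and LARS fell by 0.76 and 0.58 on the log2 scale.

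In the mRNA transcript table the 43 members had 46 transcripts, 40 members with 1 and CTH, SLC3A2 and SLC7A11 with 2. Transcripts of the same 4 genes were called higher and of the same 3 genes lower, beside 15.5% and 10.1% of all transcripts tested. The transcripts of 1 gene moved alike, with log2 fold changes of 0.33 and 0.31 for CTH, 0.12 and 0.13 for SLC3A2 and -0.34 and -0.36 for SLC7A11. How reads shared by both transcripts were counted is not given in the sources used here. In edgeR, MARS had an adjusted p of 0.0408 in this table, SLC7A1 one of 0.0491 and PSPH one of 0.0556.

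Other genes of the same pathways were listed by function, apart from the members. Of 125 such names 116 were listed and 113 tested. In all, 16 of the 113 were called higher, 14.2%, beside 15% of all genes tested, and 10 lower, 8.85%, beside 10.3%. Their median log2 fold change was -0.20. By adjusted p, 34 rose, 30.1%, beside 31.6% of all genes, and 49 fell, 43.4%, beside 31.4%.

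Of 16 mitochondrial synthetases tested, 9 fell, 56.2%, beside 31.4% of all genes tested, and 0 rose, beside 31.6%. The other 7 did not pass the adjusted p. AARS2 was called lower (log2 fold change -1.28), 6.25% of the list, beside 10.3% of all genes. The summed RPKM of the mitochondrial synthetases was 178 ± 2.63 in GM and 142 ± 4.07 in DM. On TMM-normalized library sizes the sums were closer, at 172 ± 2.76 and 146 ± 2.29. WARS2, the mitochondrial tryptophan enzyme, was at 6.92 ± 0.740 CPM in GM and 6.77 ± 0.717 in DM, next to the rise of WARS. Of 5 further cytosolic subunits and partners, AIMP2, a scaffold of the multi-synthetase complex, was called lower (-1.07), the phenylalanine enzyme's subunits FARSA (-0.93) and FARSB (-0.39) fell, and the tRNA exporter XPOT rose (0.58).

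Among 14 genes of eIF2 alpha kinases, phosphatases and the exchange factor eIF2B, none was called. Of all genes tested, 15% were called higher and 10.3% lower. By adjusted p 2 of the 14 rose, 14.3%, beside 31.6% of all genes, and 9 fell, 64.3%, beside 31.4%. The ER stress kinase PERK (EIF2AK3, 0.45) and the phosphatase subunit GADD34 (PPP1R15A, 0.58) rose. The kinases EIF2AK4 (-0.31) and EIF2AK1 (-0.32), GCN1 (-0.39) and eIF2 alpha itself (EIF2S1, -0.66) fell. So did all 5 subunits of eIF2B (-0.60 to -0.21). Of 12 further partners and targets of ATF4, 4 were called higher, 33.3%, beside 15% of all genes tested, and 2 lower, 16.7%, beside 10.3%. NIBAN1, a stress-induced regulator of translation, went from 31.5 ± 1.94 to 204 ± 11.6 CPM (log2 fold change 2.70), NUPR1, a stress-induced chromatin protein, from 23.3 ± 1.67 to 128 ± 17.1 (2.46), and VLDLR, a lipoprotein receptor, from 40.9 ± 4.76 to 183 ± 12.1 (2.16). SESN2, an inhibitor of mTORC1 that senses leucine, was the other called higher (1.56), and the secreted proteins STC2 (-1.77) and GDF15 (-1.16) were called lower. ATF3 was at 21.4 ± 1.14 CPM in GM and 20.3 ± 2.31 in DM.

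**Figure D4:**
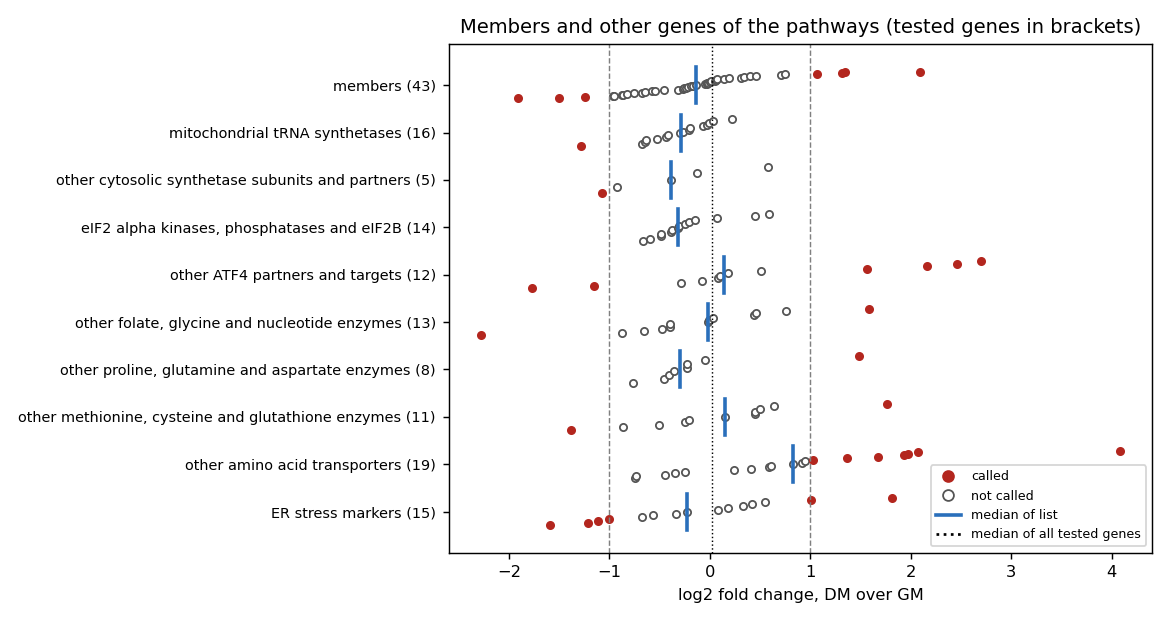
Log2 fold change, DM over GM, of each tested member and of each tested gene in 9 other lists of the pathways; filled points are called, blue bars are list medians and the dotted line is the median of all genes tested. Other amino acid transporters have a median of 0.83, set by SLC1A2, a gene with few counts, and mitochondrial synthetases lie mostly below 0.

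The remaining lists held changes in both directions. Of 13 other folate, glycine and nucleotide enzymes, GLDC of the glycine cleavage system was called lower (-2.28). ALDH1L2, the mitochondrial enzyme that oxidises formyl folate, rose (0.76 on the log2 scale), from 146 ± 5.002 to 247 ± 5.70 CPM. Of 8 enzymes of proline, glutamine and aspartate, ALDH4A1, which degrades proline, was called higher (1.49). By adjusted p 5 of them fell, 62.5%, beside 31.4% of all genes tested. Of 11 enzymes of methionine, cysteine and glutathione, CDO1, which oxidises cysteine, was called higher (1.76) and AHCY, which hydrolyses S-adenosylhomocysteine, lower (-1.38).

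Other amino acid transporters had a median log2 fold change of 0.83. That median is the value of SLC1A2, which had 1 to 8 counts per sample and an adjusted p of 0.417 in edgeR. Of the 19, 7 were called higher, 36.8%, beside 15% of all genes tested, and 0 were called lower, beside 10.3%. SLC7A8, the LAT2 light chain that also pairs with SLC3A2, was at 0.673 ± 0.421 CPM in GM and 11.4 ± 0.301 in DM (log2 fold change 4.09). SLC7A7, which pairs with SLC3A2 as well, went from 3.00 ± 0.396 to 12.6 ± 3.44 CPM (2.07), and SLC38A4 of system A from 1.82 ± 0.301 to 7.16 ± 0.827 (1.98). These 3 remained low beside SLC7A5, which was still at 70.6 ± 2.58 CPM in DM. The glutamate carrier SLC1A3 (1.68) and the neutral amino acid carrier SLC43A2 (1.94) were also called higher, as were SLC6A9 (1.37) and SLC36A1 (1.03). The call of SLC6A9, which had 4 to 13 counts per sample, was lost without any sample other than DM replicate 3 (adjusted p 0.0555 to 0.107 in edgeR). With all samples it was also lost under DESeq2 (adjusted p 0.139) and with library size alone (0.0529 in edgeR), among other settings. The call of SLC36A1 was lost without GM replicate 2, GM replicate 3 or DM replicate 1 (log2 fold change 0.91 to 0.98) and with library size alone (0.93).

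Of 15 markers of ER stress, which shares DDIT3 with the ATF4 response, 2 were called higher, 13.3%, beside 15% of all genes tested. These were DNAJB9 (1.82) and ERN1 (1.01). Called lower were MANF (-1.59), PDIA4 (-1.21), CRELD2 (-1.11) and CALR (-1.01), 26.7% of the list, beside 10.3%. By adjusted p 5 of the 15 rose, 33.3%, beside 31.6% of all genes, and 8 fell, 53.3%, beside 31.4%. HSPA5, the chaperone BiP, was at 1232 ± 21.3 CPM in GM and 972 ± 136 in DM, a log2 fold change of -0.34. The calls of CRELD2 and CALR were lost without DM replicate 3 (-0.97 for both), and that of ERN1 without GM replicate 3 (0.99) or DM replicate 1 (0.79).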

How the data were processed

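Polyadenylated RNA of 3 GM and 3 DM samples was sequenced. The authors deposited raw counts per gene and per mRNA transcript, without normalization, and RPKM values made from these counts, the deposited length and the summed counts of each sample. The study's methods name HISAT2 and the buffalo genome, the submitters' processing notes name Bowtie 0.12.2 with mm8 and mm9, and the tables list cattle Ensembl identifiers without a build, so coordinates are printed as the table gives them. No sample column was left unmapped. Deposited columns of the authors' own comparisons (fold changes and p-values) and the ncRNA table were not used here.

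Genes with at least 10 counts over the 6 samples were tested by the quasi-likelihood method (glmQLFit, then glmQLFTest) of edgeR 4.0.16 under R 4.3.3 (TMM normalization, group as the single term, Benjamini-Hochberg adjustment). TMM factors were 1.03 to 1.04 in GM and 0.948 to 0.983 in DM, and the 10 genes with most counts took 8.14 to 8.59% and 16.4 to 18.4% of counts. Standard errors came from the F statistic. The mRNA transcripts were tested in the same way. The fit was tested on simulated data. Alternatives were DESeq2 1.42.0, library size alone, DESeq2 size factors, other filters on low counts, a replicate block, a minimum fold change of 2 within the test, limma 3.58.1 on log2(RPKM + 0.1), and each sample left out.

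The members, the other lists and the marker lists were chosen with earlier results of these data known. Every listed member is named; values per sample are given for called members and ATF4, ASNS and PHGDH. From each other list up to 3 called genes with the largest change are named, and further genes of those lists, with the comparison of synthetases inside and outside the complex, were chosen after their values were seen. A called gene of those lists is not reported here.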

Additional observations from a re-analysis of the deposited data

How the results depend on the processing

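Of 644 log2 fold changes of members under 15 alternatives, 610 kept their direction and their side of the call. The counts of members called higher ranged from 3 to 4 and lower from 2 to 5, and those past the adjusted p from 9 to 12 higher and from 16 to 22 lower. Members called lower numbered 5 with library size alone and with limma on log2 RPKM, where HARS (-1.07 and -1.06) and SLC38A1 (-1.05 with both) passed the fold threshold, and their transcripts numbered 7. TRIB3 lost its call with library size alone and limma (0.97 with both). The median of the members was -0.24 with library size alone and limma and -0.04 (-0.036) under the RPKM rule (1 or more in over 50% of samples), which tests fewer genes and leaves out SHMT1. Other pathway genes called lower numbered 6 in the test against a fold change of 2.

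Changes of sign occurred in members near 0, none of them past the adjusted p. Over the alternatives the log2 fold change of ATF4 ranged from -0.099 to 0.056. ATF4 was at 0.0035 with DESeq2 and DESeq2 size factors, 0.011 with filterByExpr and 0.056 under the RPKM rule, where PYCR1 was at 0.011, AARS at 0.035, QARS at 0.023 and TARS at 0.026. With library size alone and limma, respectively, SLC1A5 was at -0.039 and -0.040, SLC38A2 at -0.090 and -0.091, GARS at -0.024 and -0.023 and SARS at -0.047 and -0.048. With 1 sample left out, log2 fold changes ranged from -0.033 to 0.043 for ATF4, -0.12 to 0.057 for PYCR1, -0.045 to 0.062 for SLC38A2, -0.059 to 0.041 for AARS, -0.078 to 0.011 for QARS and -0.054 to 0.0044 for TARS.

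Same-numbered GM and DM samples did not deviate together (r from -0.022 to -0.0076 across genes). With the replicate block 4 members were called higher and 3 lower, the log2 fold change of ATF5 was 2.09, and the adjusted p in edgeR was 0.0545 for PHGDH and 0.0439 for SLC7A1. Depth limited SHMT1 most, with 24 to 155 counts per sample.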
